A study of Mus musculus with 12 samples.

Results

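The 9 complement genes described here are C3, C4b, C2, Cfb, Cfd, C1ra, C1s1, Serping1 and Cd55, components and regulators of the complement system that stromal cells can make. They were taken by symbol from a table of 55487 genes, and all 9 were in it. RNA was measured in 12 libraries of primary mouse vascular smooth muscle cells, 3 in each of 4 groups: wild-type untreated, wild-type given 40 µg/L PDGF-BB, a growth factor for these cells, over 6 h, TIGAR knockout untreated, and TIGAR knockout with the same PDGF-BB treatment. All cells came from mice 4 to 6 weeks old and were used at passages 4 to 6 in medium with fetal bovine serum. The labels name neither the knockout allele nor the number of animals, so the spread that p-values rest on is that between these libraries and may be technical.

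Complement is a cascade of plasma and tissue proteins that tags surfaces for removal and can open pores in membranes. In the classical pathway C1q binds a target, the proteases C1r and C1s become active, and C1s cleaves C4 and C2 to form the enzyme that splits C3. In the alternative pathway factor D cleaves factor B to build a second enzyme that splits C3, while C1 inhibitor and decay accelerating factor restrain the cascade. The liver makes most of the circulating proteins, and fibroblasts, smooth muscle cells and macrophages make several of them locally.

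Values are counts per 1000000 reads (CPM), and library totals ran from 14953807 to 21698488 reads, so that 1 read was worth 0.0461 to 0.0669 CPM. The smooth muscle marker Acta2 ran from 1133 to 2863 CPM and Myh11 from 28.0 to 90.0 CPM, whereas Tagln, another marker of these cells, stood at only 2.98 to 7.12 CPM. Tigar, the gene named in the genotype, stood at 6.91 to 8.61 CPM in wild-type untreated and at a higher 10.0 to 12.2 CPM in labelled knockout untreated cells (log2 0.52, adjusted p = 0.00209), so every direction between genotypes below is by label. Endothelial markers summed to 74.8 to 97.6 CPM in wild-type and to 571 to 696 CPM in labelled knockout libraries, and macrophage markers to 93.9 to 131 and to 28.6 to 34.8 CPM. The library farthest from its own group was replicate 1 of wild-type with PDGF-BB, with a distance of 0.416 (root mean square over genes, log2 scale), where the other 11 had 0.143 to 0.293.

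Of the 9 genes, 6 reached at least 1 CPM in all 12 libraries: C1ra, C1s1, C4b, C3, Serping1 and Cd55. They passed the filter of 1 CPM in at least 3 libraries in every group and entered the fit of 14202 genes. The other 3, C2, Cfb and Cfd, did not reach 1 CPM in any library and were not tested. Compared per kilobase of exon in wild-type untreated cells, mean levels were 31.6 CPM per kb for C3, 23.7 for C1ra, 22.0 for C1s1, 16.9 for Cd55, 16.8 for C4b and 11.95 for Serping1. In labelled knockout untreated cells the order of these levels per kilobase was different, with C4b highest at 26.8 CPM per kb, followed by Cd55 at 22.4, C1ra at 13.8, Serping1 at 12.6, C1s1 at 9.67 and C3 at 6.99. These levels divide by the full exon length, although parts of C1ra, C4b, C1s1 and Cd55 also occur in related genes (48.0%, 35.2%, 24.3% and 10.7% of 50-base windows). How reads over such parts were counted is not given, so the order between genes may depend on it.

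**Figure D1:**
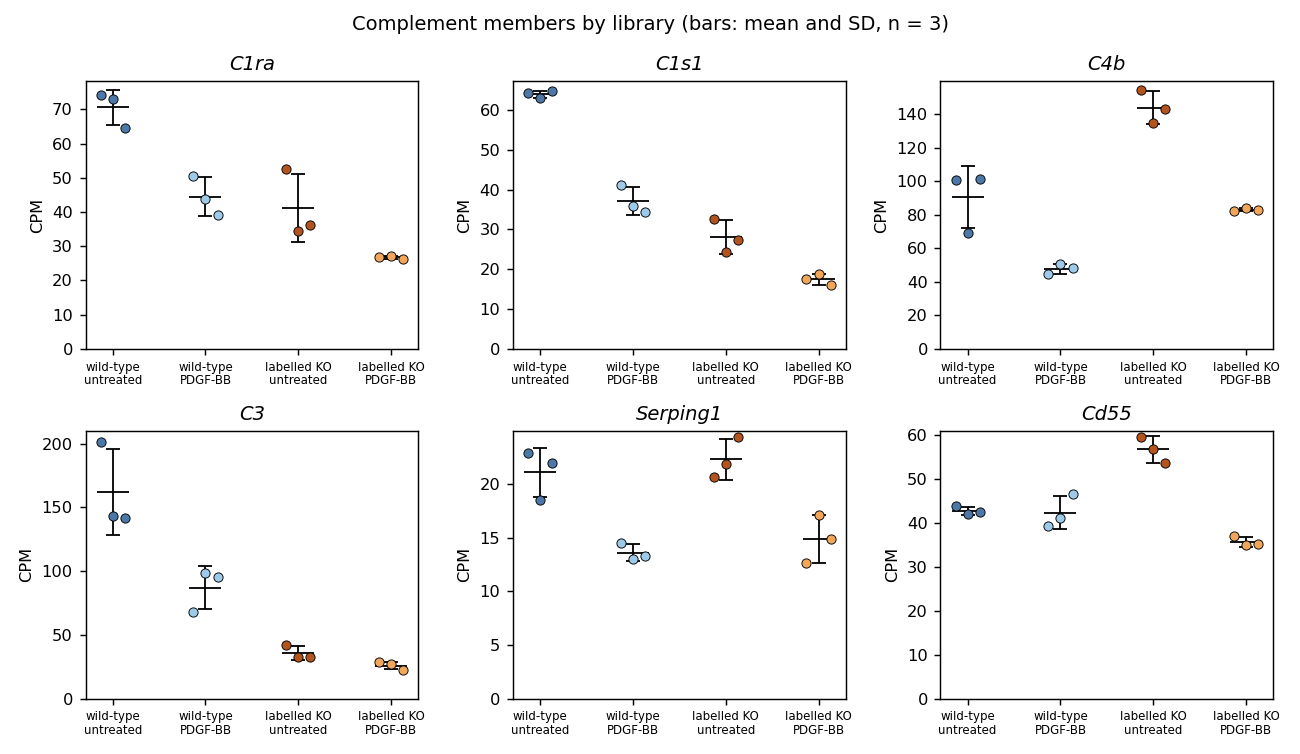
Level in CPM of C1ra, C1s1, C4b, C3, Serping1 and Cd55 in each of the 12 libraries, with 1 point per library and horizontal lines with bars for the mean and SD of 3 libraries. C3 fell from 142 to 201 CPM in wild-type untreated cells to 22.6 to 28.3 CPM in labelled knockout cells with PDGF-BB, and C4b was highest in labelled knockout untreated cells.

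The first question was what PDGF-BB did to these genes. In wild-type cells 5 of the 6 measured members fell and none rose, against 34.4% of all genes tested that fell and 25.0% that rose, 59.4% in all (limma-trend, adjusted p under 0.05). In labelled knockout cells all 6 measured members fell, against 24.8% of all genes tested that fell and 17.6% that rose, 42.4% in all. The median log2 change of the 6 was -0.71 in wild-type and -0.61 in labelled knockout cells, beside medians of -0.08 and -0.07 over all genes. The split over all genes moved with the scaling: in wild-type cells 3547 genes rose and 4884 fell, against 4189 and 4175 under TMM scaling, where the same number of members, 5, was called. The labelled knockout cells had 2502 genes that rose and 3523 that fell, against 2989 and 3071 under TMM scaling with 5 members called.

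C1ra encodes the protease C1r, and C1s1 the protease C1s that it activates. C1ra (ENSMUSG00000055172, chromosome 6, 124512405 to 124523443 in GRCm38) stood at 74.2, 73.0 and 64.6 CPM in wild-type untreated libraries and at 50.7, 43.9 and 39.1 CPM with PDGF-BB. In labelled knockout cells it stood at 52.6, 34.6 and 36.3 CPM untreated and at 26.8, 27.3 and 26.3 CPM with PDGF-BB. The treated and untreated libraries did not overlap within either genotype, while wild-type with PDGF-BB and labelled knockout untreated, the middle groups in the order, overlapped. The log2 change with PDGF-BB was -0.66 in wild-type (SE 0.14, adjusted p = 0.000993) and -0.58 in labelled knockout cells (SE 0.14, adjusted p = 0.00394).

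C1s1 (ENSMUSG00000038521, chromosome 6, 124530345 to 124542359) was at 64.2, 62.9 and 64.7 CPM in wild-type untreated libraries and at 41.2, 36.0 and 34.5 CPM with PDGF-BB. The labelled knockout libraries were at 32.7, 24.3 and 27.3 CPM untreated and at 17.6, 18.7 and 16.1 CPM with PDGF-BB. No group overlapped another, and the order of levels ran from wild-type untreated down to labelled knockout with PDGF-BB. The log2 change of C1s1 with PDGF-BB was -0.77 in wild-type (SE 0.10, adjusted p = 3.37e-05) against -0.65 in labelled knockout cells (SE 0.10, adjusted p = 0.000263). Of its exonic bases 18.4% lie under Gm16567, an antisense gene on the other strand that is listed at 0 in all libraries.

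C4b encodes complement C4, the substrate of C1s. C4b (ENSMUSG00000073418, chromosome 17, 34728380 to 34743882) stood at 101, 69.1 and 101 CPM in wild-type untreated libraries and at 44.5, 50.5 and 48.3 CPM with PDGF-BB. The labelled knockout libraries held 154, 135 and 143 CPM untreated and 82.4, 84.1 and 82.7 CPM with PDGF-BB. The labelled knockout libraries with PDGF-BB thus lay within the range of wild-type untreated ones, and all other pairs of groups were apart. The change with PDGF-BB was -0.89 in wild-type (SE 0.12, adjusted p = 3.39e-05) and -0.79 in labelled knockout cells (SE 0.12, adjusted p = 0.000182).

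C3 encodes the central protein of the cascade, on which all pathways converge. C3 (ENSMUSG00000024164, chromosome 17, 57203970 to 57228136) was at 201, 143 and 142 CPM in wild-type untreated libraries and at 67.7, 98.4 and 95.4 CPM with PDGF-BB. In labelled knockout cells it was at 41.9, 32.9 and 32.8 CPM untreated and at 28.3, 26.9 and 22.6 CPM with PDGF-BB. The 4 groups did not overlap. PDGF-BB changed C3 by -0.89 in wild-type (SE 0.16, adjusted p = 0.000411) with all libraries and by -0.72 when the treated replicate 1 was left out (adjusted p = 9.60e-05). In labelled knockout cells the change was -0.45 (SE 0.16, adjusted p = 0.0396), and this call ended in 13 of 24 other settings. Among these were edgeR and DESeq2 on recovered reads (adjusted p = 0.0776 and 0.0532), TMM scaling (0.0687), and leaving out any 1 of the 6 labelled knockout libraries (0.0502 to 0.168).

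Serping1 encodes C1 inhibitor, which blocks C1r and C1s. Serping1 (ENSMUSG00000023224, chromosome 2, 84765387 to 84775444) was at 22.9, 18.5 and 22.0 CPM in wild-type untreated libraries and at 14.5, 13.03 and 13.3 CPM with PDGF-BB. The labelled knockout libraries held 20.7, 21.9 and 24.4 CPM untreated and 12.7, 17.2 and 14.9 CPM with PDGF-BB. Untreated libraries lay above treated ones in both genotypes, and the genotypes overlapped under each treatment. The changes with PDGF-BB were -0.59 in wild-type (SE 0.12, adjusted p = 0.000664) and -0.56 in labelled knockout cells (SE 0.12, adjusted p = 0.00179).

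Cd55 encodes decay accelerating factor, a membrane protein that takes apart the enzymes that split C3. Cd55 (ENSMUSG00000026399, chromosome 1, 130439027 to 130462744) was at 43.8, 42.2 and 42.4 CPM in wild-type untreated libraries and at 39.4, 41.1 and 46.7 CPM with PDGF-BB, groups that overlap. In labelled knockout cells it was at 59.7, 56.9 and 53.7 CPM untreated and at 37.1, 35.0 and 35.1 CPM with PDGF-BB, the highest and the lowest of the 4 groups. The log2 change with PDGF-BB was -0.02 in wild-type (SE 0.075, adjusted p = 0.852, 95% interval -0.17 to 0.13) and -0.65 in labelled knockout cells (SE 0.075, adjusted p = 1.82e-05).

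**Figure D2:**
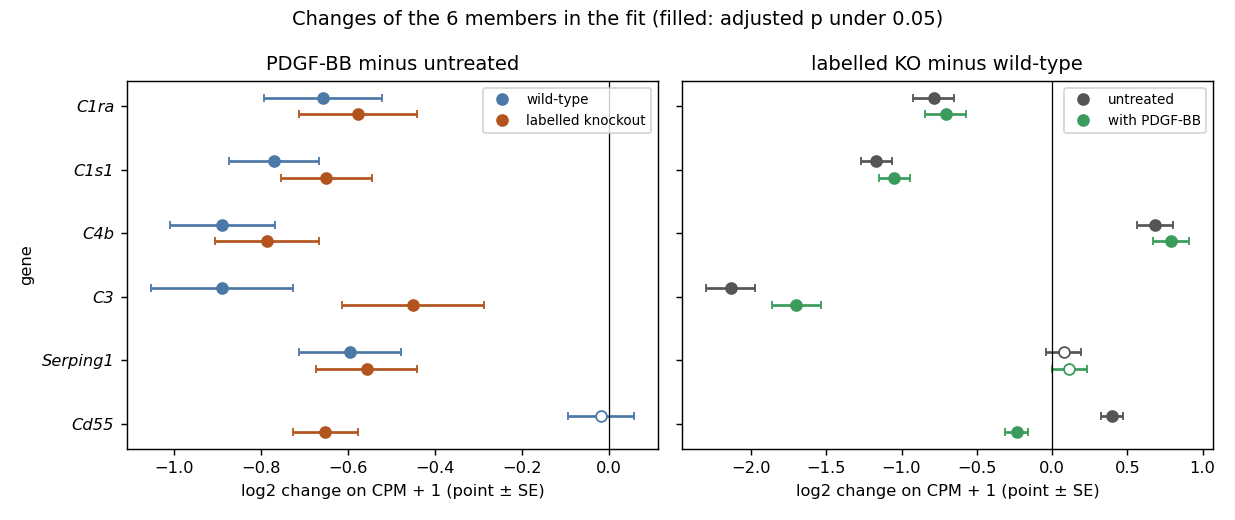
Log2 change on CPM + 1 with its SE for the 6 tested genes, PDGF-BB minus untreated on the left and labelled knockout minus wild-type on the right. Filled points passed an adjusted p of 0.05. All points with PDGF-BB lie below 0, with Cd55 in wild-type cells at -0.02 unfilled (0.061 under TMM scaling), while the genotype differences run from -2.14 for C3 to 0.79 for C4b.

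Whether the response to PDGF-BB differed by genotype label was tested with the interaction, the response in labelled knockout minus that in wild-type cells. It was called for 1 of the 6 members, Cd55, against 3.92% of all genes tested, 1.68% lower and 2.25% higher. The interaction of Cd55 was -0.63 (SE 0.11, adjusted p = 0.00525), and its adjusted p ran from 2.17e-05 to 0.0347 over 23 other settings. For C3 the interaction was 0.44 (SE 0.23, adjusted p = 0.322, 95% interval -0.01 to 0.89). For C4b, C1ra, C1s1 and Serping1 it lay between 0.04 and 0.12, with adjusted p from 0.689 to 0.917.

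The second question was how the genotype labels differed. In untreated cells 3 members were lower in labelled knockout (C3, C1s1 and C1ra) and 2 were higher (C4b and Cd55), against 24.8% of all genes tested that were lower and 9.15% that were higher, 34.0% in all. With PDGF-BB 4 were lower (C3, C1s1, C1ra and Cd55) and 1 was higher (C4b), against 26.6% and 10.6% of all genes, 37.2% in all. The median over all genes was -0.13 untreated and -0.14 with PDGF-BB. TMM scaling moved these medians by 0.12 and 0.09, and no member but Cd55 lost its call there. Over all genes 1300 were higher and 3523 lower untreated, against 1930 and 2034 under TMM scaling, and 1507 were higher and 3777 lower with PDGF-BB, against 1928 and 2139. These comparisons share libraries with those of PDGF-BB and are not independent of them.

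C3 showed the largest difference of the 6. Its mean went from 162 ± 33.8 CPM (SD, n = 3) in wild-type untreated to 35.9 ± 5.25 CPM in labelled knockout untreated cells, 4.52-fold lower, with a log2 change of -2.14 (SE 0.16, adjusted p = 4.74e-07). With PDGF-BB it was 87.2 ± 16.9 against 25.9 ± 3.01 CPM, 3.36-fold lower (log2 -1.70, SE 0.16, adjusted p = 3.90e-06). C4b, the other protein of the pair that thioester chemistry links to surfaces, went the other way. Its mean was 90.5 ± 18.6 CPM in wild-type untreated and 144 ± 9.85 CPM in labelled knockout untreated cells (log2 0.68, SE 0.12, adjusted p = 0.000655), and 47.8 ± 3.07 against 83.1 ± 0.945 CPM with PDGF-BB (log2 0.79, SE 0.12, adjusted p = 0.000239).

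The C1 proteases were lower by label under both treatments. C1s1 differed by -1.17 untreated (SE 0.10, adjusted p = 1.92e-06) and by -1.05 with PDGF-BB (SE 0.10, adjusted p = 5.10e-06). C1ra differed by -0.79 (SE 0.14, adjusted p = 0.000574) and by -0.71 (SE 0.14, adjusted p = 0.00141). Both genes lie on the chromosome of Tigar, 2.56 Mb (C1ra) and 2.54 Mb (C1s1) away from it. Within 3 Mb of Tigar 72 genes were tested, of which 23 were lower in labelled knockout untreated cells (31.9%) and 7 higher (9.72%), and with PDGF-BB 29 were lower (40.3%) and 4 higher (5.56%). C1ra and C1s1 are themselves among these 72 and among the lower ones. Over all genes tested 24.8% were lower and 9.15% higher untreated, and 26.6% and 10.6% with PDGF-BB.

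Their inhibitor Serping1 was at 0.08 untreated (SE 0.12, adjusted p = 0.647, 95% interval -0.15 to 0.31) and at 0.12 with PDGF-BB (SE 0.12, adjusted p = 0.452, 95% interval -0.11 to 0.34). Cd55 was higher in labelled knockout cells without PDGF-BB (log2 0.40, SE 0.075, adjusted p = 0.00114) and lower with it (log2 -0.24, SE 0.075, adjusted p = 0.0259). The lower value with PDGF-BB lost its call under TMM scaling (-0.13, adjusted p = 0.234), quantile normalization (-0.10, adjusted p = 0.382), edgeR (adjusted p = 0.214) and DESeq2 (adjusted p = 0.374), and with the compared groups alone (0.0963). It was also lost when wild-type treated replicate 3 (0.0891) or labelled knockout treated replicate 2 (0.0825) or 3 (0.0793) was left out. Fewer cells of a type and less RNA per cell cannot be told apart in these bulk libraries. The endothelial and macrophage marker sums given above moved with the genotype label. So did the sum of 9 fibroblast markers, at 636 to 662 CPM in wild-type against 1401 to 1663 CPM in labelled knockout untreated libraries. With PDGF-BB it was at 489 to 507 against 994 to 1018 CPM. Col14a1 made up most of the labelled knockout sums (mean 210 against 1257 CPM untreated), while Scara5 went the other way (170 against 17.1 CPM). The set did not move as a whole. Of 8 fibroblast markers tested 2 were higher and 2 lower by label untreated, against 9.15% and 24.8% of all genes. With PDGF-BB 2 were higher and 3 lower, against 10.6% and 26.6%. The sum of 8 smooth muscle markers ran from 1840 to 2329 against 2289 to 3503 CPM untreated, which overlap, and from 1492 to 1973 against 3172 to 3253 CPM with PDGF-BB. Most of this sum was Acta2, with means of 1582 against 2460 CPM untreated. Of the 8 markers 4 were higher by label untreated and 7 with PDGF-BB, against 9.15% and 10.6% of all genes, and 0 were lower. The part of these marker differences in the values of the members was not tested.

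The promoters of C3, C1ra and C1s1 are shown because these genes were lower both with PDGF-BB and by genotype label, and that of Cd55 because its change in wild-type cells was not called. Each window runs from 250 bases before to 50 after the annotated start, 5′ to 3′ on the gene's strand, from RefSeq on GRCm38.p6. Of the 9 genes 5 were matched there, and C4b, C2, Cfb and Serping1 were not. The windows are chr17:57228087-57228386 (C3, minus strand), chr6:124512371-124512670 (C1ra, plus strand), chr6:124542310-124542609 (C1s1, minus strand) and chr1:130462695-130462994 (Cd55, minus strand). The start used for C1ra lies 216 bases from the gene start in the deposited table. Capitals mark matches, on either strand, to the motifs searched.
C3: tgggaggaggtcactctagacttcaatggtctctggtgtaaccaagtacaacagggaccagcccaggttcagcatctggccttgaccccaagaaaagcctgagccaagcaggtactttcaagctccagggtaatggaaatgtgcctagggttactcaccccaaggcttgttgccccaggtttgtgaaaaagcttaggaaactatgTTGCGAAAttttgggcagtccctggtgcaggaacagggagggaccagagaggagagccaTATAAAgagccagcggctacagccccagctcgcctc
C1ra: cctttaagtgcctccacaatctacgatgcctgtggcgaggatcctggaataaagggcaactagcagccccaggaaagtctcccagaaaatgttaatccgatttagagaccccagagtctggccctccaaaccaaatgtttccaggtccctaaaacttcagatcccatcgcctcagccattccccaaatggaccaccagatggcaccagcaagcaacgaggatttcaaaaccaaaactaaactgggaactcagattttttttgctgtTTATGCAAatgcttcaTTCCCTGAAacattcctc
C1s1: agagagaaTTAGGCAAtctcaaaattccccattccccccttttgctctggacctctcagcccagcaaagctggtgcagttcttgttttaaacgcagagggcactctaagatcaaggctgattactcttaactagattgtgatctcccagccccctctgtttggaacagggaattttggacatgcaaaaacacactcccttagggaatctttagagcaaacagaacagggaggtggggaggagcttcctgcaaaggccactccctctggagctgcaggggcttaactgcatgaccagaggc
Cd55: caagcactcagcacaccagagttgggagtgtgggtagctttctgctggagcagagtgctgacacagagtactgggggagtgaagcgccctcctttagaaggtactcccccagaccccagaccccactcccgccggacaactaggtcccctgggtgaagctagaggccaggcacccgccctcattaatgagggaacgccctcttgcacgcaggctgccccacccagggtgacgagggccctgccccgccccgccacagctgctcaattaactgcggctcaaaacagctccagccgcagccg

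The motifs were TTGCNNAA for C/EBP factors, TTCNNNGAA for STAT factors, GAAA repeated after a gap of 2 bases for interferon response elements, GGG followed after a gap of 2 bases by TTTCC for NF-kB, TGANTCA for AP-1 and TATAAA. C3, C1ra and C1s1 each held 1 match to the C/EBP letters, which 10.8% of 32851 promoter windows hold. C3 also held 1 TATAAA, as 13.6% of windows do, and C1ra 1 match to the STAT letters, as 8.30% do. The TATAAA of C3 lay 14 to 19 bases after the annotated start. Both C1ra matches also lay after it, at 16 to 23 (C/EBP) and 32 to 40 bases (STAT). None of the 4 windows held the interferon, NF-kB or AP-1 letters, which 3.44%, 1.63% and 7.81% of windows hold, and the Cd55 window held none of the 6 motifs. The window of Cfd, which was also matched and searched but is not shown, held none of the 6 either. These matches describe the letters only.

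C2, Cfb and Cfd encode the proteases that complete the enzymes of the classical and alternative pathways. C2 (ENSMUSG00000024371, chromosome 17, 34862604 to 34898265) had 7, 4 and 4 reads in wild-type untreated, 0, 1 and 1 with PDGF-BB, 9, 3 and 4 in labelled knockout untreated, and 7, 2 and 3 in labelled knockout with PDGF-BB. Cfb (ENSMUSG00000090231, chromosome 17, 34856374 to 34862518) had 3 reads in replicate 1 of wild-type untreated, 1 in each wild-type library with PDGF-BB and 0 in the other 8 libraries. Gene models overlap here, and 79.5% of exonic Cfb bases and 42.8% of exonic C2 bases also belong to Gm20547, a gene model on the same strand that spans both. Gm20547 is listed at 0 in all libraries, and how reads over shared exons were counted is not given in the sources used here, so the low values of C2 and Cfb need not be low RNA levels.

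Cfd (ENSMUSG00000061780, chromosome 10, 79890853 to 79892655), the factor D gene that fat cells express strongly, had 1 read in 1 wild-type untreated library and 0 in the other 11. A count of 0 allows up to 0.201 CPM at the lowest depth, for counting error only. Most adipocyte markers were also low: 5 of 7 stayed under 1 CPM in all libraries, and Lep was at 0. Fabp4 ran from 2.06 to 8.36 CPM and Cd36 from 0.292 to 2.26 CPM.

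Stretches identical to a related gene can make the origin of reads uncertain. Of the 50-base windows in the longest C4b transcript 35.2% also occur in C4a, and for C1ra and C1rb this share was 48.0%, for C1s1 and C1s2 24.3% and for Cd55 and Cd55b 10.7%. The related genes themselves were low, with C4a at 0.632 to 1.83 CPM, C1s2 at most 0.560 CPM and Cd55b at most 0.153 CPM. C1rb reached 1.31 CPM in replicate 3 of labelled knockout with PDGF-BB and at most 0.262 CPM elsewhere.

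The rest of the complement system was read from a list of 44 further genes, of which 22 passed the filter and 22 did not. With PDGF-BB 11 of the 22 fell and 1 rose in wild-type cells, against 34.4% and 25.0% of all genes tested. In labelled knockout cells 9 fell and 2 rose, against 24.8% and 17.6%. Among the wild-type falls, C5ar1 (limma-trend adjusted p = 0.0479) lost its call in 21 of 23 other settings and Cfp (0.0392) in 10 of 24. By label 9 were lower and 7 higher untreated, against 24.8% and 9.15% of all genes. With PDGF-BB 8 were lower and 6 higher by label, against 26.6% and 10.6%. The balance by label moved with the scaling, to 9 higher and 8 lower untreated under TMM scaling, in edgeR and in DESeq2, and to 7 higher and 7 lower with PDGF-BB in DESeq2. Cfi and Csmd1 passed the filter only through labelled knockout libraries, and C5ar1 only through wild-type ones, so they had to differ by label although they stand in these counts, and Cr2 passed through 3 untreated libraries, so it had to differ with PDGF-BB.

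C1q, the sensor of the classical pathway, is made mainly by macrophages. C1qa, C1qb and C1qc together stood at 31.2 to 34.8 CPM in wild-type untreated, 20.8 to 39.5 CPM in wild-type with PDGF-BB, 7.42 to 10.2 CPM in labelled knockout untreated and 5.44 to 6.13 CPM in labelled knockout cells with PDGF-BB. All 3 were lower by label, at -1.43, -1.78 and -1.62 untreated and -1.88, -1.90 and -1.69 with PDGF-BB (adjusted p at most 6.47e-05). Of 7 macrophage markers tested 6 were lower by label untreated and 5 with PDGF-BB, against 24.8% and 26.6% of all genes tested. Tyrobp, among these 7, passed the filter only through wild-type libraries (at most 0.890 CPM in labelled knockout ones), so it had to differ by label. The part of macrophage content in the C1q values was not tested. With PDGF-BB limma-trend called none of the 3 in either genotype, at an unadjusted p under 0.05 for 0 in wild-type and 1 in labelled knockout cells, and edgeR and DESeq2 called 0. In labelled knockout cells C1qa changed by -0.48 (limma-trend adjusted p = 0.0573) and was called lower in 6 of 24 other settings (adjusted p down to 0.00474). C1qc changed there by -0.36 (limma-trend adjusted p = 0.131) and was called lower in 3 of 24 (down to 0.0267). When the treated wild-type replicate 1 was left out 1 of 3 fell in wild-type and 2 of 3 in labelled knockout cells, where 37.2% and 32.6% of all genes fell.

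**Figure D3:**
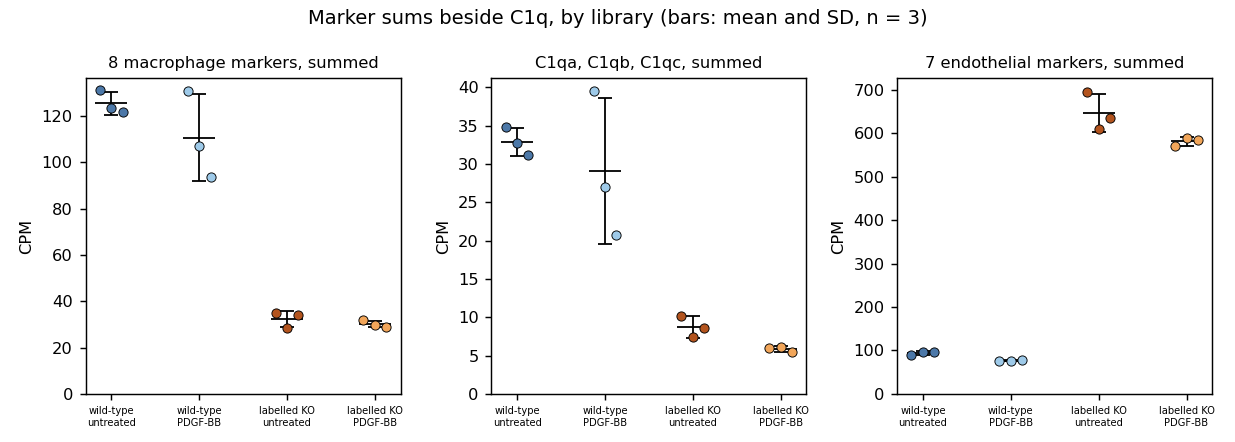
Summed CPM of 8 macrophage markers, summed CPM of C1qa, C1qb and C1qc, and summed CPM of 7 endothelial markers, with 1 point per library and lines with bars for the mean and SD of 3 libraries. C1q and the macrophage sum are lower, and the endothelial sum higher, in all 6 labelled knockout libraries than in all 6 wild-type ones.

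Among lectin pathway genes, Masp1, the protease of collectin complexes, stood at 67.7 ± 3.99 CPM in wild-type and 75.5 ± 4.87 CPM in labelled knockout untreated cells, and limma-trend called none of its 4 pairwise changes. Its difference by label was 0.16 untreated and 0.12 with PDGF-BB (adjusted p = 0.124 and 0.219), and it was called higher under TMM scaling (0.29 and 0.23, adjusted p = 0.0128 and 0.0424), in edgeR (adjusted p = 0.0129 and 0.0440) and in DESeq2 (adjusted p = 0.00344 and 0.0196). Colec10 and Colec11, collectins that bind sugars on surfaces, fell with PDGF-BB in both genotypes, Colec10 by 0.93 and 0.88 and Colec11 by 0.67 and 0.62 on the log2 scale in wild-type and labelled knockout cells. Colec11 was also higher by label (0.59 untreated and 0.64 with PDGF-BB, adjusted p = 0.0292 and 0.0194). Each of these 2 calls was lost in 4 of 22 other settings (adjusted p up to 0.120 and 0.0737), and the fall in labelled knockout cells in 4 of 23 (up to 0.0877). Cfp encodes properdin, which stabilizes the alternative enzyme, and was lower by label (-0.76 and -0.75, adjusted p = 0.00161 and 0.00188). Of the 6 terminal genes only C8g passed the filter, at 4.73 ± 0.168 CPM in wild-type untreated cells, and C6, C7, C8b and C9 had 0 reads in all libraries.

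Among the soluble regulators, C4bp, which encodes an inhibitor of the enzyme built from C4 and C2, rose with PDGF-BB. It went from 12.1 ± 1.56 to 27.5 ± 6.30 CPM in wild-type (log2 1.10, SE 0.20, adjusted p = 0.000346) and from 20.5 ± 6.15 to 34.9 ± 2.40 CPM in labelled knockout cells (log2 0.78, SE 0.20, adjusted p = 0.00615). Clu, which encodes clusterin, an inhibitor of the terminal complex, was lower by label (-0.53 and -0.52, adjusted p = 0.00421 and 0.00458). Cfi, the protease that inactivates C3b and C4b, stood at 0.113 ± 0.120 CPM in wild-type and 1.64 ± 0.343 CPM in labelled knockout untreated cells.

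Among membrane regulators, Cr1l, which encodes the rodent regulator Crry, fell slightly with PDGF-BB (-0.26 in wild-type and -0.28 in labelled knockout, adjusted p = 0.00378 and 0.00331), and its differences by label were 0.06 untreated and 0.04 with PDGF-BB (adjusted p = 0.5001 and 0.666). The untreated difference was called under TMM scaling (0.19, adjusted p = 0.0317), in edgeR (0.0300) and in DESeq2 (0.0102). Cd46, the membrane cofactor protein, fell by 1.08 and 1.04 with PDGF-BB. Cd59a, which blocks the membrane pore, was higher by label (0.44 and 0.47, adjusted p = 0.0152 and 0.0111), and lost the call untreated with any of 4 libraries left out (adjusted p up to 0.0741) and treated with 1 (0.0503). Among receptors, Cd93, a surface protein of endothelial cells once proposed to bind C1q, stood at 28.4 ± 1.07 CPM in wild-type and 178 ± 24.3 CPM in labelled knockout untreated cells (log2 2.60, SE 0.13). C3ar1, the receptor of the C3a fragment, rose with PDGF-BB in labelled knockout cells (0.73, adjusted p = 0.00653) and stood at 0.09 in wild-type ones (adjusted p = 0.712), and the interaction was 0.65 (adjusted p = 0.201). Itgb2, an integrin subunit of complement receptors on leukocytes, was lower by label, at -1.03 untreated and -1.12 with PDGF-BB.

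Of the 22 further genes limma-trend called 0 interactions, against 3.92% of all genes tested, and 1 had an unadjusted p under 0.05, against 19.2% of all genes. Both edgeR and DESeq2 called 0 of the 22.

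**Figure D4:**
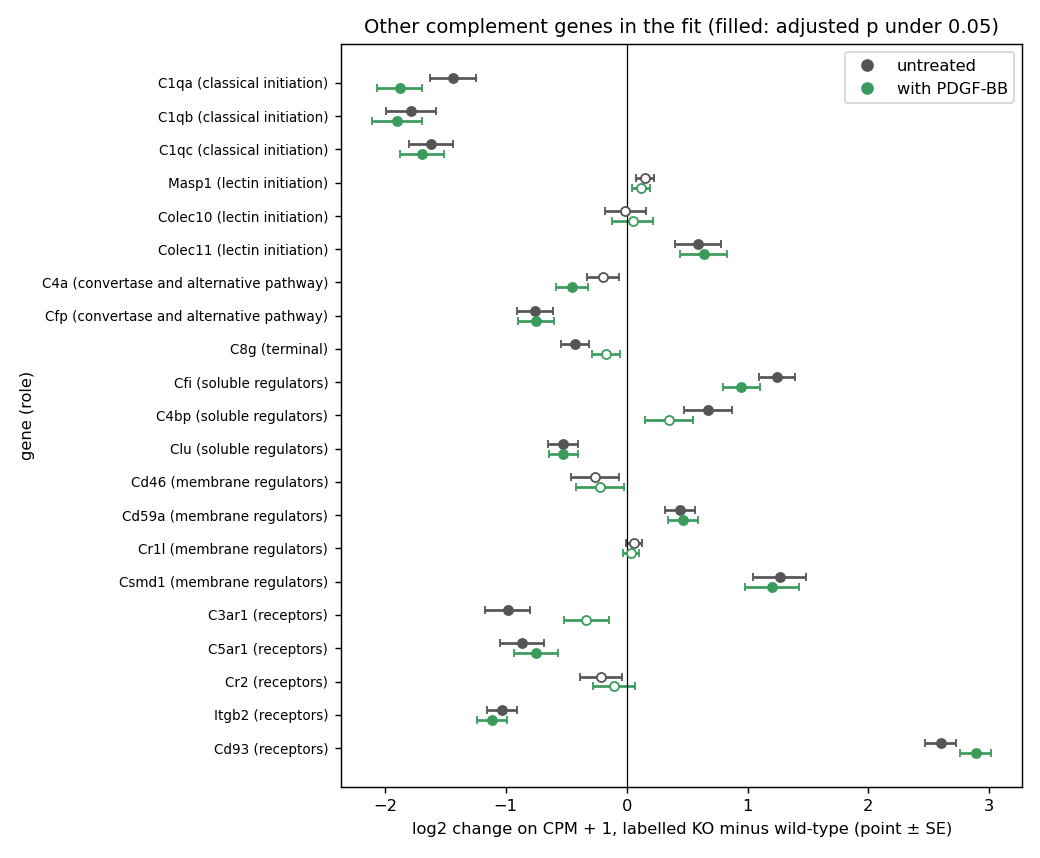
Log2 change on CPM + 1 with its SE, labelled knockout minus wild-type, for further complement genes that passed the filter, untreated and with PDGF-BB. Filled points passed an adjusted p of 0.05. C1qa, C1qb, C1qc and Itgb2 lie below -1 in both conditions, and Cd93 lies at 2.60 untreated and 2.89 with PDGF-BB.

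The genes most like each member were found by the root mean square distance between log2 profiles over the 12 libraries, each centred on its own mean, among 12577 genes. For C3, whose own spread was 1.04 on this scale, the nearest were Abi3bp (0.180), Gpm6b (0.202) and Eps8l2 (0.235). For C4b they were Pde7a (0.125), Pdgfd (0.146) and Rb1 (0.152), for C1ra Cirbp (0.106), Col8a2 (0.125) and Sult1a1 (0.129), and for C1s1 Lmtk3 (0.115), Pltp (0.116) and Smim1 (0.132). For Serping1 they were Trmt2b (0.107), Trpc1 (0.107) and Calhm5 (0.116), and for Cd55 Arhgef2 (0.0962), Grem1 (0.106) and Auts2 (0.115). The own spread was 0.575 for C4b, 0.510 for C1ra, 0.667 for C1s1, 0.315 for Serping1 and 0.242 for Cd55. A small distance for a gene that varies little is therefore not a closer likeness. Among the members themselves C1ra and C1s1 were closest (0.206), and C3 and C4b were farthest apart (1.34).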

How the data were processed

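The authors deposited 1 table of CPM values (reads per 1000000, not divided by gene length), although it is named for FPKM. HISAT2, HTSeq and the build mm10 are named in the submitters' processing notes; per the file headers, gene locations are on GRCm38.p6. The library kit was stranded, per the labels' protocols; versions and the strand setting of the counting are not given in the sources used here. Each library summed to 1000000, and 100% of values were whole reads within 0.001 read, so reads were recovered. Genes with at least 1 CPM in at least 3 libraries (14202) were tested with limma-trend (limma 3.58.1, R 4.3.3) after log2(CPM + 1); the model held all 12 libraries and a mean for each group. P-values are 2-sided, adjusted by Benjamini-Hochberg over the genes tested, with a threshold of 0.05. The 95% intervals use the normal distribution and are somewhat narrower than the moderated t-test behind the p-values would give. Levels per kilobase use the exon length in the deposited table. Fold changes on the log2(CPM + 1) scale understate those of low genes. Alternatives were the recovered reads in edgeR 4.0.16 or DESeq2 1.42.0, other pseudocounts, filters and scalings, a replicate block, the compared groups alone, and leaving out each library. On these reads edgeR called 8414 and 6030 genes with PDGF-BB (wild-type, labelled knockout), 3936 and 4142 by label (untreated, treated) and 496 interactions. The steps were tested on simulated data. Copies and exon overlaps came from GENCODE M21. Named genes are the 9 members, Tigar, the listed complement genes and factors, and the 3 nearest profiles per member. Members and lists were chosen with earlier results of these data known. Some listed genes enter the counts but are not reported here by name. Figures used matplotlib 3.10.9.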

Additional observations from a re-analysis of the deposited data

Results flagged for a closer look

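Cd55 responded to PDGF-BB differently by genotype label, with an interaction of -0.63 on the log2 scale (SE 0.11, limma-trend adjusted p = 0.00525), since it fell in labelled knockout cells and its change of -0.02 in wild-type cells was not called. Of the transcription factors listed, Pparg had an interaction of -0.64 (adjusted p = 0.0435), a call lost in 12 of 23 other settings (adjusted p 0.0187 to 0.110), from 7.13 ± 1.04 to 5.03 ± 0.467 CPM with PDGF-BB in labelled knockout cells and from 6.21 ± 0.198 to 7.39 ± 0.451 CPM in wild-type cells.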

How the results depend on the processing

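Over 702 recomputed changes of the 6 tested members, 670 kept their direction and side of the threshold, 21 lost a call (13 of them C3 with PDGF-BB in labelled knockout cells, 8 Cd55 by label with PDGF-BB) and 11 changed sign. In part of these settings, such as leaving out a library of a group not compared, only the adjusted p could move and the direction was fixed. The sign changes were all in uncalled values near 0: Cd55 with PDGF-BB in wild-type cells (0.061 under TMM scaling, 0.067 in edgeR, 0.049 in DESeq2, and -0.088 to 0.032 with 1 library left out), the interaction of C1ra (-0.029 to 0.267 with 1 library left out), the interaction of Serping1 (-0.062 to 0.143) and Serping1 by label untreated (-0.0097 to 0.135). With 1 library left out, called members numbered 5 to 5 with PDGF-BB in wild-type, 5 to 6 in labelled knockout, 5 to 5 by label untreated, 4 to 5 by label with PDGF-BB and 1 to 1 for the interaction. For the other complement genes these ranges were 9 to 14, 8 to 15, 13 to 17, 12 to 15 and 0 to 0. With a mean CPM of at least 5 only 12 of the other complement genes were tested. Of these 12, 7, 6, 9 and 8 were called in the 4 pairwise comparisons. In the main fit 12, 11, 16 and 14 of 22 were called. With no filter 1, Hc, had a called interaction, at 14 reads over all libraries. Over all genes the 557 called interactions became 910 in DESeq2 and 1554 when wild-type treated replicate 1 was left out, and Cd55 stayed called in both. With the replicate number as a block, called members numbered 5, 5, 5, 5 and 1, and other complement genes 11, 13, 16, 14 and 0, and with the number within genotype as a block the PDGF-BB comparisons and interaction gave 5, 5 and 1 members and 11, 12 and 0 other genes. The numbers were not used as pairs: correlations of same-numbered deviations from group means were -0.231, -0.208 and 0.150 in wild-type and 0.00977, -0.0575 and 0.0401 in labelled knockout cells. With no filter C2, Cfb and Cfd were tested too and not called, the lowest adjusted p being that of C2 with PDGF-BB in wild-type cells (log2 -0.31, adjusted p = 0.0523, on 45 reads over all libraries).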

Other observations

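Transcription factors with known sites at complement promoters were also read, all 12 of which were in the fit. With PDGF-BB 8 fell and 2 rose in wild-type cells, against 34.4% and 25.0% of all genes tested. In labelled knockout cells 8 fell, against 24.8% of all genes. Among the wild-type falls that of Stat3 (log2 -0.17, limma-trend adjusted p = 0.0495) lost its call in 19 of 24 other settings. That of Irf1 (log2 -0.50, adjusted p = 0.0222) lost it in 5 of 24. The interferon pathway genes Stat2 and Irf9 fell in both genotypes, Irf9 from 57.3 ± 3.52 to 33.0 ± 0.585 CPM in wild-type and from 46.5 ± 6.73 to 25.8 ± 2.72 CPM in labelled knockout cells (log2 -0.78 and -0.82, adjusted p = 2.52e-05 and 3.40e-05). Nr1h3, which encodes the liver X receptor alpha, fell by 0.61 and 0.71 on the log2 scale.

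The C/EBP genes went different ways. Cebpb stood at 35.1 ± 3.68 CPM in wild-type and 25.1 ± 4.47 CPM in labelled knockout untreated cells (log2 -0.48, adjusted p = 0.0185, lost in 6 of 23 other settings, TMM scaling, edgeR and DESeq2 among them, with adjusted p up to 0.0971), and at 47.8 ± 9.21 and 22.9 ± 0.910 CPM with PDGF-BB (log2 -1.02, adjusted p = 0.000108). Cebpa was lower by label too (-0.79 and -1.15, adjusted p = 0.000754 and 3.77e-05). Cebpd was higher by label with PDGF-BB (0.67, adjusted p = 0.00259) and stood at 0.37 without it (adjusted p = 0.0556, called under TMM scaling at 0.0133, in edgeR at 0.0117 and in DESeq2 at 0.00201). Cebpd fell with PDGF-BB in both genotypes (-0.83 and -0.54), while Cebpb rose in wild-type cells (0.42, adjusted p = 0.0197, lost in 2 of 24 other settings, up to 0.0793) and stood at -0.11 in labelled knockout ones (adjusted p = 0.553).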
